A study of Mus musculus with 26 samples.

Results

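Tumour cells in which the Notch1 and Rbpj axis was broken were compared with tumour cells in which it was intact. All 26 libraries of the series entered, chosen by their titles: 15 with a broken axis against 11 with an intact one. The broken libraries were Notch1-/- (n = 6), Notch1-/-Notch2-/- (n = 5) and Rbpj-/- (n = 4), and the intact ones were Notch2-/- (n = 5) and control (n = 6), which had wild-type Notch1, Notch2 and Rbpj. Every tumour, controls included, was an early-stage mouse glioma driven by PDGF and lacking the tumour suppressor Trp53. The cells carried GFP from a Cre reporter at the Rosa locus, and were sorted for GFP after the tumour had been cut out of the brain. The sources used here name neither the promoter that drove Cre nor the exons removed, nor the animals' sex. The labels do not tie each replicate to an animal of its own, and the p-values therefore cover the spread among libraries, part of which may be technical.

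Notch1 and Notch2 are surface receptors that are cut when a ligand on a neighbouring cell binds them. The freed inner part enters the nucleus and joins Rbpj, a DNA-binding protein that all Notch receptors share, and genes such as Hes1 and Hes5 are switched on. In the brain this pathway is known for keeping neural stem cells undifferentiated and for directing precursors to glial rather than neuronal fates. Deleting Notch1 or Rbpj breaks the same axis at the receptor and at the DNA, while deleting Notch2 alone leaves Notch1 and Rbpj in place.

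Each broken library held 30868828 to 44376594 counts and each intact one 37613009 to 48103535, and 15617 genes had enough counts to be tested. Below, a level is in CPM, a gene's count as its share of the library's TMM-scaled total. A log2 fold change is the mean of the 3 broken genotypes minus the mean of the 2 intact ones, each genotype with equal weight, given with its standard error. A gene is said to have risen or fallen where its adjusted p in edgeR's quasi-likelihood test over all genes was under 0.05. It is called consistent where each broken genotype on its own also passed against the intact average in the same direction. Control replicate 6 and Notch2-/- replicates 3 and 4 held both Xist, made from the inactive X chromosome of females, and the Y-linked Ddx3y, and are called mixed. Xist without any count of Ddx3y was found in Rbpj-/- replicate 2, in Notch1-/-Notch2-/- replicates 1 and 2, and in control replicate 1.

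Breaking the axis went with large falls of a limited set of genes and with smaller rises of others. In the pooled contrast 2829 of 15617 genes rose (18.1%) and 2778 fell (17.8%), 35.9% in either direction, and the median log2 fold change of all genes tested was 0.05. Of these, 322 rose (2.06% of genes tested) and 511 fell (3.27%) consistently in all 3 broken genotypes, 5.33% together. The 3 genotype contrasts share the 11 intact libraries, so this count is set by the rule and their overlap is no independent evidence. The median log2 fold change of the consistent genes was 0.61 for those that rose and -1.91 for those that fell. Of the 322, 18 rose by 4-fold or more, and of the 511, 234 fell by 4-fold or more.

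Separation of the libraries was counted on the same values, so it is no independent evidence. More genes were separate below than above, a lean that the pooled calls did not show in number. In 96 genes (0.615% of genes tested) every broken library was below every intact one, and in 7 (0.0448%) every broken library was above. Of these 103 genes, 100 were consistent in the test. The 7 that were higher throughout were Plppr3, Eif4b, Bcor, Ing5, Srrm1, Eno3 and Cox15. Against the intact average, 1351 genes rose (8.65%) and 1493 fell (9.56%) in Notch1-/-, 2613 rose (16.7%) and 2706 fell (17.3%) in Notch1-/-Notch2-/-, and 750 rose (4.8%) and 678 fell (4.34%) in Rbpj-/-, the genotype with the fewest libraries.

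The consistent counts depended on single libraries. Consistent rises were 104, 146 and 121 without Rbpj-/- replicates 1, 2 and 4, 212 without Notch1-/- replicate 3, and 538, 512 and 524 without Notch1-/- replicate 2, Rbpj-/- replicate 3 and control replicate 4. Consistent falls were 155, 218 and 180 without Rbpj-/- replicates 1, 2 and 4. Without the 3 mixed libraries 57 genes rose and 178 fell consistently.

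The genes of the deleted alleles were read in every library. Notch1 had 82.7, 141 and 260 CPM as lowest, median and highest of the 15 broken libraries, against 71.2, 129 and 160 CPM in the 11 intact ones. Within Notch1-/- it had 88.2 to 214 CPM, which overlapped the intact libraries, and it was not called in the pooled contrast (log2 fold change 0.37 ± 0.17, adjusted p = 0.0868), although it passed without Notch1-/-Notch2-/- replicate 5 (adjusted p = 0.0496) or Rbpj-/- replicate 3 (adjusted p = 0.0416). In Rbpj-/- the level of Rbpj was 20.4, 35.0, 43.7 and 52.0 CPM, against 46.5 to 70.5 CPM across intact libraries. Rbpj-/- was lower than the intact average (log2 fold change -0.65, adjusted p = 0.0286), with replicate 4 inside the intact range.

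Notch2 had 9.43 to 12.9 CPM in Notch1-/-Notch2-/- and 6.14 to 8.58 CPM in Notch2-/-, against 9.42 to 16.4 CPM in control. The double mutant libraries lay within the control range and the Notch2-/- ones below it. It was lower in Notch2-/- than in control (log2 fold change -0.79, adjusted p = 0.0200) and rose in the pooled contrast (0.53 ± 0.10, adjusted p = 0.000387). Notch2-/- is part of the intact average, so the deletion lowers the level that this rise is measured against. Trp53, deleted throughout, had 10.9 to 18.1 CPM in the broken libraries and 8.14 to 15.2 CPM in the intact ones, and rose by 0.31 ± 0.11 (adjusted p = 0.0303), a call lost without Rbpj-/- replicate 1 (0.0563), Notch2-/- replicate 4 (0.0648), control replicate 5 (0.0533) or control replicate 6 (0.0528), and without the 3 mixed libraries. Counts over a whole gene need not show the loss of a few exons, so these levels check the labels only in part, and genotypes are named as the labels give them.

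Among genes that Notch switches on directly, Hes5 was the only consistent one. Of 10 Notch target genes tested, 5 fell in the pooled contrast (Hes5, Nrarp, Hes1, Hey1 and Notch3) and the other 5 did not pass (Hey2, Hes6, Heyl, Dtx1 and Trib2). The median log2 fold change of the 10 was -0.37, beside 0.05 for all genes tested. Hes5, a repressor of neuronal differentiation, had 0.312, 0.53 and 1.87 CPM as lowest, median and highest of the broken libraries, against 2.27, 4.57 and 8.54 CPM in the intact ones. No broken library reached the lowest intact one, and Hes5 fell by 2.77 ± 0.26 on the log2 scale (adjusted p = 8.59e-08). Its genotype contrasts were -3.31 in Notch1-/-, -3.02 in Notch1-/-Notch2-/- and -1.97 in Rbpj-/-.

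Nrarp and Hey1 were set apart in Rbpj-/- from the genotypes that lack Notch1. Nrarp, which speeds the turnover of active Notch and so limits the signal that induces it, stood at 24.3, 19.0, 12.9 and 14.0 CPM in the 4 Rbpj-/- libraries, at 1.78 to 10.1 CPM in Notch1-/- and 3.74 to 7.55 CPM in Notch1-/-Notch2-/-, against 16.4 to 41.7 CPM in the intact libraries. The Rbpj-/- values lay above every other broken library, with replicates 1 and 2 inside the intact range. Nrarp fell in the pooled contrast (-1.70 ± 0.20, adjusted p = 2.37e-06), its Rbpj-/- contrast did not pass (-0.68, adjusted p = 0.160), and the test of equal levels among the 3 broken genotypes gave an adjusted p of 0.0181.

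Hey1, a Hes-related repressor, stood at 34.0, 26.1, 29.5 and 23.7 CPM in the 4 Rbpj-/- libraries, at 12.7 to 27.5 CPM in Notch1-/- and 12.0 to 20.1 CPM in Notch1-/-Notch2-/-, against 25.1 to 41.7 CPM in the intact libraries. Rbpj-/- replicates 1, 2 and 3 and Notch1-/- replicate 2 were inside the intact range. Hey1 fell by 0.69 ± 0.13 on the log2 scale in the pooled contrast (adjusted p = 0.000262), with -0.89 in Notch1-/-, -1.06 in Notch1-/-Notch2-/- and -0.11 in Rbpj-/-, and an adjusted p of 0.0347 for the difference among the broken genotypes. Hes1, a repressor related to Hes5, had 15.4, 6.81, 8.05 and 4.15 CPM in Rbpj-/-, 1.09 to 11.6 CPM in Notch1-/- and 1.39 to 3.26 CPM in Notch1-/-Notch2-/-, against 11.9 to 26.1 CPM in the intact libraries. It fell by 1.69 ± 0.26 on the log2 scale (adjusted p = 3.42e-05), its Rbpj-/- contrast of -1.0 did not pass (adjusted p = 0.105), and the 3 genotypes were not shown to differ (adjusted p = 0.118). Notch3, a receptor that is also a Notch target, fell by 0.75 ± 0.29 (adjusted p = 0.0470), a call lost without any of 15 libraries taken singly and turned to 0.30 with an endothelial score as covariate.

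**Figure D1:**
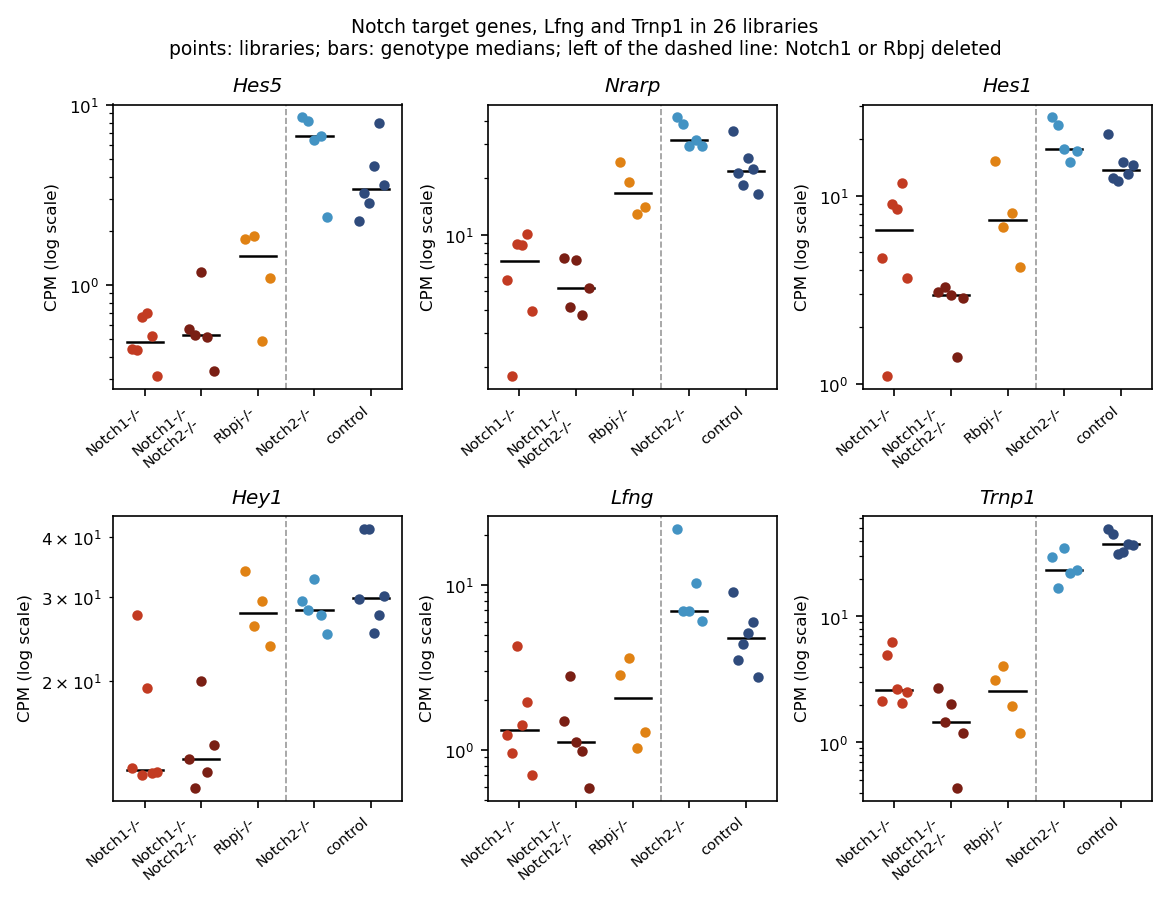
Level of 5 genes of the Notch pathway and of Trnp1 in each of 26 libraries, in CPM on a log scale, by genotype; points are libraries and bars genotype medians. Hes5 and Trnp1 have no broken library (left of the dashed line) within the intact range, while the Rbpj-/- points of Nrarp and Hey1 lie higher than those of Notch1-/-Notch2-/-.

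The pathway's own ligands, receptors and modifiers moved in both directions. Of 32 tested, 8 rose and 5 fell, beside 18.1% risen and 17.8% fallen of all genes tested. The 8 include Notch2, whose low level in Notch2-/- lowers the intact average it is compared with. The median log2 fold change was 0.10, and 3 were consistent: Lfng, which fell, and Dll3 and Dlk1, which rose. The 5 falls became 3 without Notch1-/-Notch2-/- replicate 4, Notch2-/- replicate 2 or control replicate 5. Lfng, the Fringe enzyme that adds sugars to Notch receptors and so changes which ligand they answer to, had 0.59, 1.28 and 4.24 CPM as lowest, median and highest of the broken libraries, against 2.76, 6.06 and 21.8 CPM in the intact ones. It fell by 2.06 ± 0.31 on the log2 scale (adjusted p = 3.16e-05), although the highest broken libraries overlapped the lowest intact ones. Dll3, a ligand that acts inside its own cell against Notch, had 37.3, 62.6 and 104 CPM in the broken libraries, against 24.1, 38.9 and 46.5 CPM in the intact ones, and rose by 0.84 ± 0.10 (adjusted p = 3.12e-06). Its rise was 1.23 in Notch1-/-Notch2-/-, 0.56 in Notch1-/- and 0.72 in Rbpj-/-, which differed (adjusted p = 0.0447).

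The promoters of 4 genes that fell are shown because they differ in the presence of TGGGAA, the core of the site that Rbpj binds, or its reverse complement TTCCCA. The sequences are from RefSeq (GRCm38.p6), the 250 bases before the start site of its table, 5′ to 3′ on the gene's strand, with the motif in capitals. Hes5 (chr4:154960673-154960922, plus strand) and Lfng (chr5:140607091-140607340, plus strand) each hold 2 matches, which begin 226 and 82 bases before the start site in Hes5 and 135 and 108 bases before it in Lfng. Nrarp (chr2:25180508-25180757, plus strand) and Trnp1 (chr4:133498551-133498800, minus strand) hold none.
Hes5: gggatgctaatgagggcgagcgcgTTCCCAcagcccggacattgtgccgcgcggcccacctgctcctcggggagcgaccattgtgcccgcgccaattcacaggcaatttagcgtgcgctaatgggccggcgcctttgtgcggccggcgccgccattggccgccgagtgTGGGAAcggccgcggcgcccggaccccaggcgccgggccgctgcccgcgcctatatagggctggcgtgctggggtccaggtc
Lfng: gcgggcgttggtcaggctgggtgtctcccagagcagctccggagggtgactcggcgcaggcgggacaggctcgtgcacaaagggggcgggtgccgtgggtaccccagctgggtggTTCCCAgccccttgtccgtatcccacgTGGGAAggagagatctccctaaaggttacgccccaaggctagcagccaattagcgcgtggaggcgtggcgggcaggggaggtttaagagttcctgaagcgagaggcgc
Nrarp: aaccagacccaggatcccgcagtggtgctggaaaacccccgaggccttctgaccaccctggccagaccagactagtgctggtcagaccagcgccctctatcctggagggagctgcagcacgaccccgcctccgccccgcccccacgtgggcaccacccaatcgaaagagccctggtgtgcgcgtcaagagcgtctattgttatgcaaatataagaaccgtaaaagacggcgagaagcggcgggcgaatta
Trnp1: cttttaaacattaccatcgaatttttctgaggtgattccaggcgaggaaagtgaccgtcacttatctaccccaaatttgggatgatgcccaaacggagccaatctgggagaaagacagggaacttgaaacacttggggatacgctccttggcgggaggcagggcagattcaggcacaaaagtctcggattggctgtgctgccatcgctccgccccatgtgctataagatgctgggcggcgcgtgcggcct

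Either form of the motif, on windows of 250 bases before to 50 after the start site, was in 92 of 389 windows of consistently fallen genes (23.7%) and 60 of 247 of consistently risen ones (24.3%), against 2857 of 12177 windows of all genes tested (23.5%). The shares are close to the background, and a match is a run of letters, not a shown binding site.

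Trnp1, a nuclear protein that controls how neural stem cells divide, was the annotated protein-coding gene with the smallest adjusted p. It had 0.437, 2.14 and 6.26 CPM as lowest, median and highest of the broken libraries, against 16.7, 32.3 and 49.5 CPM in the intact ones. The highest broken library stood below the lowest intact one, and Trnp1 fell by 3.71 ± 0.25 on the log2 scale (adjusted p = 8.16e-10). The fall was 3.20 in Notch1-/-, 4.32 in Notch1-/-Notch2-/- and 3.61 in Rbpj-/-, and 0.61 for Notch2-/- against control, which did not pass (adjusted p = 0.411). Of all genes, Gm1943, which RefSeq lists as a transcribed pseudogene on chromosome 8 (109339787 to 109340908 in GRCm38.p6), had the smallest adjusted p (3.36e-11). It was singled out after its values were seen, it had 5.24, 6.52 and 9.81 CPM in the broken libraries, against 19.6, 23.9 and 33.2 CPM in the intact ones, and its log2 fold change was -1.88 ± 0.11. Reads of a pseudogene can come from its parent gene, so this count is uncertain.

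Among consistent genes whose log2 CPM averaged at least 1, the other largest falls were mostly genes of vessels, microglia and myelin. Slco1a4 (-3.88 ± 0.41) and Slco1c1 (-3.71 ± 0.30) encode transporters of the blood-brain barrier, and Ly6c1 (-3.70 ± 0.38) a surface protein of brain endothelium. Gpr34 (-3.47 ± 0.33), P2ry12 (-3.34 ± 0.29), Siglech (-3.22 ± 0.28) and P2ry13 (-3.19 ± 0.33) are receptors of microglia, and Selplg (-3.04 ± 0.35) is a selectin ligand of leukocytes. Vtn (-3.20 ± 0.34) and Rgs5 (-3.09 ± 0.33) mark pericytes, Mal (-3.12 ± 0.46) is a myelin protein, and Grm3 (-3.19 ± 0.35) is a glutamate receptor of glia. Klhl4 (-3.82 ± 0.36) and Pltp (-2.98 ± 0.40), a phospholipid transfer protein, complete the 15 with Trnp1. As an example, P2ry12 had 1.77, 3.86 and 9.62 CPM in the broken libraries, against 16.1, 46.0 and 78.1 CPM in the intact ones, with no overlap.

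**Figure D2:**
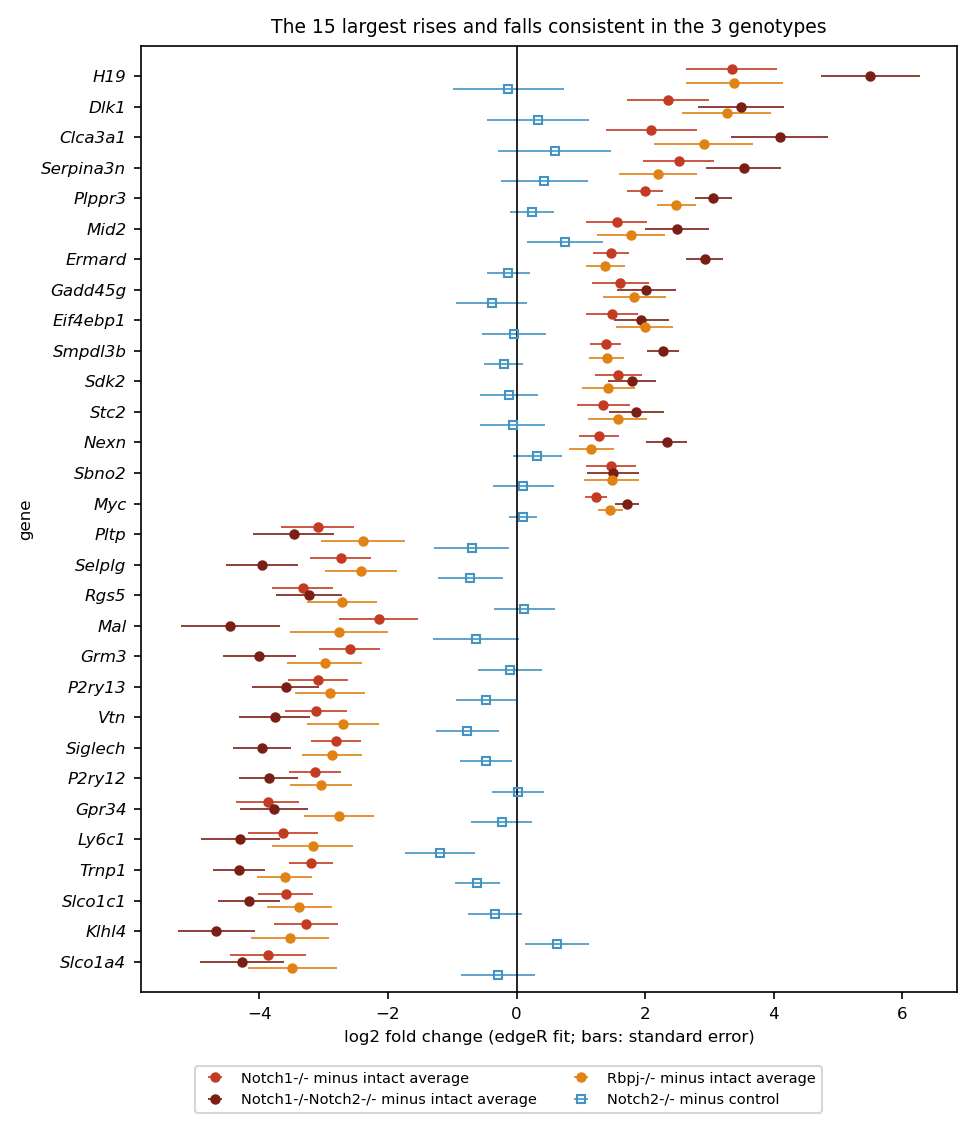
Log2 fold change of the 15 largest rises and the 15 largest falls that were consistent, for each broken genotype against the intact average (filled circles) and for Notch2-/- against control (open squares); bars are standard errors. The filled circles lie on one side of zero for every gene, as the choice of genes requires, and the Notch1-/-Notch2-/- point is often furthest out.

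Marker genes of microglia and of endothelium were lower in the broken libraries although the cells had been sorted for GFP. In the pooled contrast 19 of 21 microglia and macrophage genes fell (14 consistently, median log2 fold change -2.40). So did 14 of 15 endothelial genes (10 consistently, median -2.05). Of all genes tested, 17.8% fell and 3.27% fell consistently. The summed level of the 21 was 56.3, 149 and 302 CPM as lowest, median and highest of the broken libraries, against 338, 792 and 1665 CPM in the intact ones. The summed level of the 15 was 77.9, 146 and 192 CPM in the broken libraries, against 247, 416 and 533 CPM in the intact ones. Neither sum overlapped between the sets, and no gene of either list was at 0 in any library. Tek, the angiopoietin receptor of endothelium, had 0.158 to 1.14 CPM in the broken libraries, against 2.12 to 10.2 CPM in the intact ones. In these bulk libraries fewer cells of a type and less RNA per cell cannot be told apart.

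Other cell types outside the tumour lineage moved less uniformly. Among all genes tested 18.1% rose and 17.8% fell. Of 7 infiltrating myeloid genes 4 fell, with a median log2 fold change of -1.59. The summed level of the 7 was 1.40 to 35.4 CPM in the broken libraries, 12.5 to 22.4 CPM in Notch2-/- and 15.8 to 79.3 CPM in control. The Notch2-/- libraries thus lay inside the broken range. Of 15 mural and fibroblast genes 5 fell, with a median of -0.71, a count that became 11 without Notch1-/- replicate 5. The summed mural and fibroblast level overlapped widely, at 343 to 2221 CPM in the broken libraries and 683 to 1731 CPM in the intact ones. In the T and NK cell list 1 of 6 genes rose (Klrb1c, median of the list 1.65), a call lost without any 1 of 17 libraries, and every gene of that list was at 0 in some broken and some intact library. Of 4 ependymal genes Ak7 rose, a call lost without Rbpj-/- replicate 3, and Foxj1 fell, with a median of 0.06. The single calls in the T and NK cell and ependymal lists were near the shares of all genes tested.

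Calls became few with those marker levels as covariates, while the fold changes of some genes stayed and those of others shrank. The mean log2 CPM of the microglia list had 74.0% of its variance between the broken and the intact set, and that of the endothelial list 75.8%. With the microglia mean as covariate 112 genes rose and 134 fell in the pooled contrast, and 7 rose and 9 fell consistently. With the endothelial mean 1 gene rose (Tdrd1) and 4 fell (Gm1943, Trnp1, Hes5 and Car8). With both means in the edgeR fit 4 genes fell (Gm1943, Trnp1, Hes5 and Nwd1) and 0 rose, beside 762 falls and 524 rises at an unadjusted p under 0.05. In that fit the log2 fold change was -4.51 ± 0.57 for Trnp1 (adjusted p = 0.000444), -3.56 ± 0.61 for Hes5 (adjusted p = 0.0331) and -2.25 ± 0.26 for Gm1943 (adjusted p = 0.000179). Car8, a carbonic anhydrase relative without enzyme activity, and Nwd1 were singled out after their values were seen, and fell in the pooled contrast by 1.61 ± 0.13 and 2.06 ± 0.29. Of genes that lost their call in it, the log2 fold change was -2.23 for Slc4a4, -2.11 for S1pr1, -2.80 for Lfng, -2.27 for Nrarp and 3.94 for H19, against -2.36, -2.30, -2.06, -1.70 and 4.08 without covariates. For the marker genes P2ry12 and Slco1a4 it was -1.23 and -0.94, against -3.34 and -3.88. Genes outside those marker lists shrank too, to 1.12 for Dlk1, 0.73 for Gadd45g, 0.47 for Stc2 and 0.11 for Cdkn2a. Their values without covariates were 3.04, 1.82, 1.59 and 1.66. The part of the marker levels in these results was not tested.

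**Figure D3:**
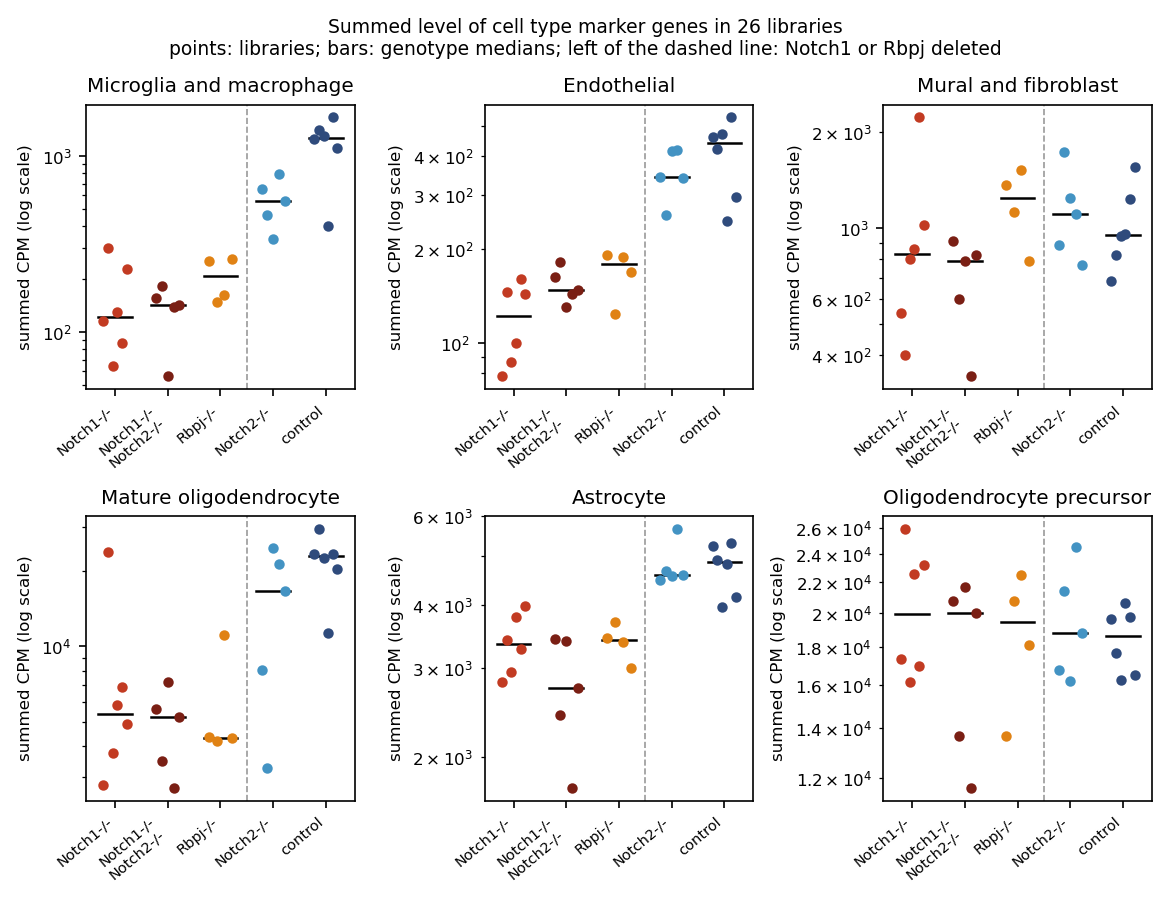
Summed level, in CPM on a log scale, of the marker genes of 6 cell types in each of 26 libraries by genotype; points are libraries and bars genotype medians. The microglia and endothelial sums of broken libraries (left of the dashed line) all lie below those of intact ones, whereas the oligodendrocyte precursor sums overlap.

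Astrocyte genes fell as a group. Of 22 tested, 15 fell, 9 of them consistently, and the median log2 fold change was -1.0. The shares of all genes tested were 17.8% fallen and 3.27% fallen consistently. The summed level of the 22 was 1737 to 3987 CPM in the broken libraries and 3960 to 5657 CPM in the intact ones, so the sets overlapped at the edge only. Slc4a4, the sodium bicarbonate carrier of astrocytes, had 3.07, 6.16 and 10.2 CPM as lowest, median and highest of the broken libraries, against 17.4, 30.6 and 53.8 CPM in the intact ones, without overlap, and fell by 2.36 ± 0.21 (adjusted p = 2.87e-08). The water channel Aqp4 (-2.70 ± 0.28) and the astrocyte membrane protein Mlc1 (-2.80 ± 0.26) did not overlap either. The lipid carrier Apoe fell by 1.91 ± 0.20, and is also a gene of microglia. With the microglia mean as covariate 4 astrocyte genes fell and 1 rose, and with the mature oligodendrocyte mean 11 fell and 1 rose. With the endothelial mean, or with both the microglia and endothelial means, the 15 lost their calls.

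Mature oligodendrocyte genes fell too, with overlap between the sets. Beside 17.8% fallen and 3.27% consistently fallen of all genes tested, 14 of these 16 fell, 6 consistently. Their median log2 fold change was -1.87. Their summed level was 2720, 4916 and 23773 CPM as lowest, median and highest of the broken libraries, against 3263, 21346 and 29481 CPM in the intact ones. The highest broken library was Notch1-/- replicate 2, and the next, Rbpj-/- replicate 3, had 11136 CPM. The lowest intact library was Notch2-/- replicate 2, and the next, Notch2-/- replicate 1, had 8009 CPM. The myelin genes Mog (-2.83 ± 0.41), Mobp (-2.63 ± 0.41) and Mal were among the falls, as was Aspa (-2.83 ± 0.42), an enzyme that breaks down N-acetylaspartate. Mog had 13.2 to 236 CPM in the broken libraries and 22.9 to 705 CPM in the intact ones. The mean of this list had 50.3% of its variance between the sets, and as a covariate, added after seeing the data, it left 364 rises and 376 falls in the pooled contrast and 20 and 32 consistent ones.

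Genes of oligodendrocyte precursors, the cell type that PDGF-driven gliomas are known to resemble, showed few calls. Of 18 tested, 3 rose, beside 18.1% of all genes tested. That count became 1 without Rbpj-/- replicate 4, Notch2-/- replicate 1 or control replicate 1, and the median log2 fold change was 0.07. Their sum was 11653 to 25905 CPM in the broken libraries and 16186 to 24474 CPM in the intact ones. Sox6, a transcription factor of precursors, had 417, 613 and 804 CPM in the broken libraries, against 266, 382 and 594 CPM in the intact ones, and rose by 0.59 ± 0.13 (adjusted p = 0.00106).

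Of 15 neural stem and progenitor genes tested, 3 rose and 3 fell, shares near the 18.1% and 17.8% of all genes tested, with a median log2 fold change of 0.06, and the rises became 1 without Notch2-/- replicate 3 or 4. Prom1, a membrane protein used to mark stem-like glioma cells, had 7.66, 11.2 and 38.2 CPM in the broken libraries, against 24.1, 74.3 and 125 CPM in the intact ones, and fell consistently by 2.23 ± 0.29 (adjusted p = 5.80e-06). Its log2 fold change was -0.94 with the mature oligodendrocyte mean as covariate. Fabp7, the radial glial fatty acid binding protein, fell by 0.87 ± 0.16, and Nr2e1, an orphan nuclear receptor of neural stem cells, by 0.55 ± 0.15. Sox2, a stem cell transcription factor, rose by 0.34 ± 0.09 (adjusted p = 0.00603), a call lost without the 3 mixed libraries.

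Of 13 proneural and early neuronal genes, 4 rose and 1 fell, beside 18.1% risen and 17.8% fallen of all genes tested. The median log2 fold change of the list was 0.25. Sox4, a transcription factor of young neurons and progenitors, was the consistent one, with 52.5, 74.1 and 107 CPM in the broken libraries, against 32.6, 49.1 and 61.6 CPM in the intact ones. It rose by 0.63 ± 0.12 (adjusted p = 0.0004), with 0.66 in Notch1-/-, 0.63 in Notch1-/-Notch2-/- and 0.60 in Rbpj-/-. Its relative Sox11 rose by 0.87 ± 0.19, and the neuronal transcription factor Myt1 by 0.46 ± 0.13. The single fall, of the homeobox gene Dlx1 (named after its values were seen), was lost without any 1 of 12 libraries. Of 13 mature neuron genes 2 rose and 1 fell, with a median of -0.26. The falls became 3 without Notch1-/-Notch2-/- replicate 3 and 2 without Notch1-/- replicate 4, Rbpj-/- replicate 1 or Rbpj-/- replicate 3, and the rises became 1 without Notch2-/- replicate 3. The rises included the imprinted RNA Meg3 (1.14 ± 0.33), and the fall was of the neurofilament gene Nefl (-0.98 ± 0.30).

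Genes of the BMP pathway, which also steers glial fate, included 3 consistent falls. Of 18 BMP and Id genes tested 2 rose and 5 fell, with a median log2 fold change of 0.10. Among all genes tested, 18.1% rose, 17.8% fell and 3.27% fell consistently. Id4, which blocks the DNA binding of proneural factors, had 0.318, 0.629 and 1.32 CPM in the broken libraries, against 1.43, 3.16 and 4.34 CPM in the intact ones, without overlap. It fell by 2.26 ± 0.21 (adjusted p = 9.04e-08). The ligand Bmp2 fell by 1.36 ± 0.20 and the inhibitory Smad7 by 0.88 ± 0.20, and Smad9, a BMP signal carrier, rose by 0.52 ± 0.13. Smad7 was at 0.0495 with the mature oligodendrocyte mean as covariate.

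Among the genes that rose, Plppr3 was separate in every library. Plppr3, a membrane protein known from axons, had 2.93, 7.66 and 22.0 CPM as lowest, median and highest of the broken libraries, against 0.70, 1.55 and 2.31 CPM in the intact ones. It rose by 2.51 ± 0.24 (adjusted p = 1.65e-07), with 2.00 in Notch1-/-, 3.06 in Notch1-/-Notch2-/- and 2.48 in Rbpj-/-. Its log2 fold change was 2.66 with both marker means as covariates, a fit in which it was not called. Myc, a transcription factor that drives growth, had 42.4, 89.8 and 149 CPM in the broken libraries, against 22.7, 32.3 and 43.8 CPM in the intact ones. Notch1-/- replicate 2, at 42.4 CPM, was the only broken library below the highest intact one, control replicate 4, and Myc rose by 1.47 ± 0.15 (adjusted p = 2.71e-07).

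The other 6 genes that were higher in every broken library rose by less. Eif4b, a translation initiation factor, had 446 to 709 CPM in the broken libraries and 294 to 436 CPM in the intact ones (0.66 ± 0.07), and Bcor, a transcriptional corepressor, had 45.9 to 89.5 CPM in the broken libraries, against 31.6 to 44.2 CPM in the intact ones (0.74 ± 0.09). The chromatin protein Ing5 rose by 0.56 ± 0.08, the splicing factor Srrm1 by 0.44 ± 0.07, the enolase Eno3 by 0.83 ± 0.13 and Cox15, needed to make the haem of cytochrome oxidase, by 0.33 ± 0.06. These 6 were named after their values were seen. The number of genes higher throughout became 26, 17, 31, 22, 11 and 11 without Notch1-/- replicate 2, Rbpj-/- replicate 1, Rbpj-/- replicate 3, Notch2-/- replicate 2, Notch2-/- replicate 4 and control replicate 4.

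The largest rises were uneven between libraries. H19, an imprinted RNA made from the maternal chromosome in fetal tissue, had 3.16, 39.1 and 362 CPM in the broken libraries, against 0.843, 3.32 and 9.11 CPM in the intact ones. Notch1-/- replicates 4 and 5 (6.22 and 3.35 CPM) and Rbpj-/- replicate 3 (3.16 CPM) were inside the intact range, while the 5 Notch1-/-Notch2-/- libraries had 97.4, 362, 32.2, 331 and 178 CPM. H19 rose by 4.08 ± 0.66 (adjusted p = 7.19e-05).

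Dlk1, an imprinted surface protein related to Notch ligands, had 0.52, 15.5 and 57.2 CPM in the broken libraries, against 0.569, 1.76 and 6.01 CPM in the intact ones. Notch1-/- replicate 2 was below every intact library. Inside the intact range were Notch1-/- replicates 4 and 6 (3.67 and 3.97 CPM) and Rbpj-/- replicate 3 (2.03 CPM). Dlk1 rose by 3.04 ± 0.58 (adjusted p = 0.000344). Serpina3n, a protease inhibitor of reactive astrocytes, had 13.0, 320 and 797 CPM in the broken libraries, against 17.6, 28.4 and 89.0 CPM in the intact ones, and rose by 2.75 ± 0.50 (adjusted p = 0.000198). Notch1-/- replicate 4 (13.0 CPM) and Rbpj-/- replicates 2 and 3 (60.1 and 26.7 CPM) did not exceed the intact range. With the mature oligodendrocyte mean as covariate the log2 fold change of Dlk1 was 0.34 and that of Serpina3n 1.60, neither called, and that of H19 was 4.16, which was called.

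**Figure D4:**
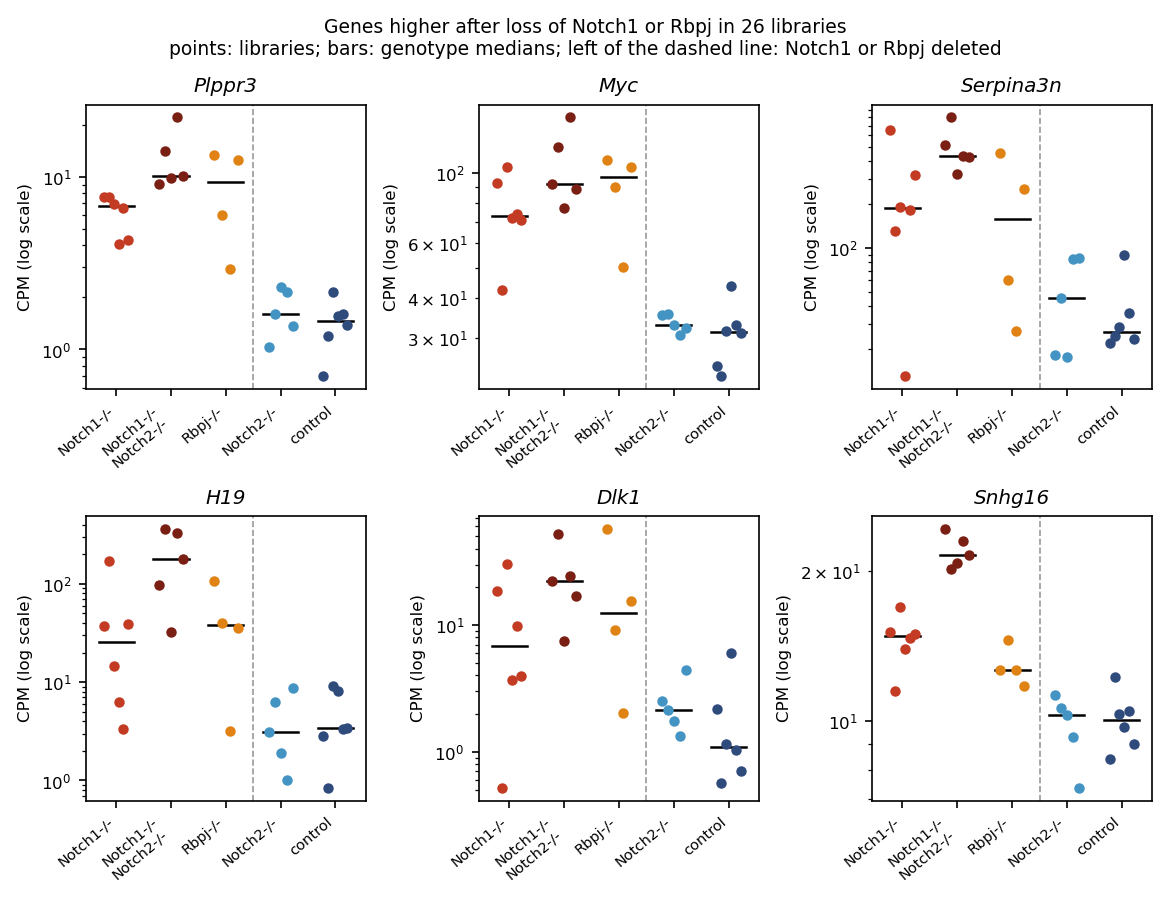
Level of 6 consistently risen genes in each of 26 libraries, in CPM on a log scale, by genotype; points are libraries and bars genotype medians. Plppr3 separates the broken libraries (left of the dashed line) from the intact ones, H19, Dlk1 and Serpina3n each have broken libraries within the intact range, and Snhg16 is highest in Notch1-/-Notch2-/-.

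The remaining 10 of the 15 largest consistent rises had varied functions. Clca3a1, of the chloride channel regulator family, rose by 3.03 ± 0.64, and the ubiquitin ligase gene Mid2 by 1.94 ± 0.41. Ermard, a protein of the endoplasmic reticulum, rose by 1.92 ± 0.24 and Gadd45g, which is induced by DNA damage, by 1.82 ± 0.38. Eif4ebp1, a brake on translation that mTOR releases, had 2.82, 20.1 and 60.6 CPM in the broken libraries, against 2.64, 5.70 and 9.07 CPM in the intact ones, and rose by 1.81 ± 0.35. Smpdl3b, a lipid-modifying membrane protein, rose by 1.69 ± 0.21, the adhesion gene Sdk2 by 1.60 ± 0.31 and the secreted glycoprotein Stc2 by 1.59 ± 0.35. Nexn, an actin-binding protein, rose by 1.59 ± 0.26 and Sbno2, a transcriptional coregulator, by 1.48 ± 0.32. With the mature oligodendrocyte mean as covariate the log2 fold change was 0.09 for Mid2, 0.17 for Stc2 and 0.60 for Eif4ebp1. It was 0.69 for Gadd45g and Sbno2, 1.16 for Smpdl3b, 1.31 for Nexn and 1.39 for Sdk2. For Ermard and Clca3a1 it was 1.99 and 2.02. The part of this marker level was not tested.

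Among imprinted growth genes 9 of 17 rose and 3 fell, with a median log2 fold change of 0.45. Of all genes tested, 18.1% rose, 17.8% fell and 2.06% rose consistently, so the share of falls was near the background. H19, Dlk1 and Igf2r were consistent. Igf2r, the receptor that clears insulin-like growth factor 2, had 54.4, 64.3 and 85.1 CPM in the broken libraries, against 30.1, 45 and 56.4 CPM in the intact ones, and rose by 0.60 ± 0.10. Sgce, a sarcoglycan gene, was among the falls (-0.57 ± 0.11).

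Few genes were called as differing among the 3 broken genotypes, which does not show that the genotypes were alike. The test of equal levels passed in 189 genes in edgeR (1.21% of genes tested). DESeq2's likelihood ratio test gave 488 and limma voom with quality weights 395. In edgeR it passed in 13 of the 833 consistent genes. In 10 of those 13, Notch1-/-Notch2-/- was furthest from the intact side. Over the 833 consistent genes Notch1-/-Notch2-/- was furthest in 581, Rbpj-/- in 135 and Notch1-/- in 117, and the median log2 fold change of the 511 falls was -2.06, -1.75 and -1.60 in that order of genotypes. A gene had to pass in all 3 genotypes to be counted, and Rbpj-/- had the fewest libraries.

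Snhg16, an RNA that hosts small nucleolar RNAs, had the smallest p of this test among consistent genes. It had 24.2, 20.2, 20.7, 22.9 and 21.5 CPM in Notch1-/-Notch2-/- replicates 1 to 5, 11.5 to 16.9 CPM in Notch1-/- and 11.8 to 14.5 CPM in Rbpj-/-, against 7.37 to 12.2 CPM in the intact libraries. The double mutant libraries stood above all others, and the difference among genotypes had an adjusted p of 0.00719. S1pr1, a receptor for sphingosine-1-phosphate found on astrocytes and endothelium, had 4.51 to 7.74 CPM in Notch1-/-Notch2-/-, 8.02 to 19.0 CPM in Notch1-/- and 9.78 to 20.8 CPM in Rbpj-/-, against 35.5 to 91.4 CPM in the intact libraries. The double mutant libraries were again the furthest out, with an adjusted p of 0.0246. Ermard (log2 fold change 2.93 in Notch1-/-Notch2-/-, 1.47 in Notch1-/- and 1.38 in Rbpj-/-, adjusted p = 0.0270) and Angptl1, a secreted angiopoietin-like protein (-3.36, -1.85 and -1.41 in that order, adjusted p = 0.0377), had the same order. Siae, a sialic acid esterase, had -1.19, -0.47 and -0.74 (adjusted p = 0.0250) and St3gal6, a sialyltransferase, -1.16, -0.46 and -1.12 (adjusted p = 0.0252).

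The number of genes in which the broken genotypes differed rested on single libraries: it was 49, 57, 113 and 98 without Notch1-/-Notch2-/- replicates 2, 4, 1 and 5, 110 and 123 without Notch1-/- replicates 1 and 6, and 104, 70 and 98 without Rbpj-/- replicates 1, 2 and 4. Notch1-/-Notch2-/- replicates 1 and 2 were 2 of the 4 libraries with Xist and no Ddx3y, and with log2 CPM of Xist as covariate 101 genes differed.

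Between Notch2-/- and control, whose axis is intact in both, 46 genes passed in edgeR (0.295% of genes tested), 344 in DESeq2's Wald test and 1790 in limma voom with quality weights. This count was 170 without Notch1-/- replicate 2, which enters through the shared spread, 83 without control replicate 4, and 21 to 28 without each of Notch2-/- replicates 1, 2, 4 and 5 and control replicates 2, 3 and 5. The 2 intact genotypes still gave different pooled counts as sole comparison group: 604 genes rose and 1214 fell against Notch2-/- alone, with 19 and 103 consistent, and 3051 rose and 3025 fell against control alone, with 714 and 881 consistent. Hes5 was at 8.54, 8.18, 6.36, 6.73 and 2.38 CPM in Notch2-/- replicates 1 to 5, against 2.27 to 7.97 CPM in control, a difference of 0.65 on the log2 scale that did not pass (adjusted p = 0.407).

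Cell cycle genes rose in part, with no consistent member. Of 24 mitosis genes 9 rose (median log2 fold change 0.44), of 25 DNA replication genes 7 (median 0.38) and of 15 genes of D cyclins and CDK inhibitors 4 (median 0.29). The share risen of all genes tested was 18.1%. Mki67, a protein of dividing cells, had 164, 702 and 1125 CPM in the broken libraries, against 40.9, 323 and 618 CPM in the intact ones, and rose by 1.06 ± 0.32 (adjusted p = 0.0125). The kinesin Cenpe rose by 1.14 ± 0.32, topoisomerase Top2a by 0.70 ± 0.20, the checkpoint kinase Bub1b by 0.55 ± 0.17 and the replication helicase subunit Mcm7 by 0.62 ± 0.15. Without the 3 mixed libraries 1 mitosis gene and 2 replication genes rose, and Mki67, Top2a and Bub1b were not called, while without Notch1-/- replicate 2 the counts were 18 and 17. With the mature oligodendrocyte mean as covariate the log2 fold change was 0.23 for Mki67, 0.40 for Cenpe, 0.22 for Mcm7, -0.0132 for Top2a and -0.0789 for Bub1b. Cdkn2a, a CDK inhibitor and tumour suppressor, rose by 1.66 ± 0.39, Ccnd3, a D cyclin, by 0.75 ± 0.19 and Cdkn1c, an imprinted CDK inhibitor, by 1.29 ± 0.35, and with the microglia mean as covariate their values were 0.12, 0.24 and 3.28. The count of this list was 8 without Notch1-/- replicate 2 and 7 without Rbpj-/- replicate 3.

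Among all genes tested 18.1% rose and 17.8% fell, the shares to set beside the lists that follow here. Of 21 immediate early genes 6 rose and 3 fell (median log2 fold change 0.23). The rises included Jun (0.70 ± 0.11) and Fos (1.17 ± 0.23), which together form the AP-1 factor. Jun rose by 1.23 in Notch1-/-Notch2-/-, 0.48 in Notch1-/- and 0.37 in Rbpj-/-, the last of which did not pass, and these differed (adjusted p = 0.0181). Of 14 MAPK feedback genes 1 fell (median 0.06), the phosphatase Dusp6 (-0.52 ± 0.17), a call lost without Notch2-/- replicate 2 (adjusted p = 0.0506). Of 6 PDGF ligands and receptors 2 fell (median -0.33), the ligands Pdgfd (-1.83 ± 0.51) and Pdgfc. The count was 1 without any 1 of 8 libraries, where Pdgfc lost its call. Of 13 Wnt target genes 3 rose and 4 fell (median -0.32), with Apcdd1, a Wnt inhibitor, consistent (-0.74 ± 0.13) and the secreted inhibitor Notum (-2.30 ± 0.45) and the transcription factor Lef1 (-1.70 ± 0.38) among the other falls. Lef1 turned to 0.48 with the endothelial mean as covariate, and Notum was at -0.60 with the microglia mean. The 3 Wnt rises became 1 without any 1 of 10 libraries and 0 without Notch2-/- replicate 3.

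Of 34 axon guidance genes 7 rose and 9 fell (median log2 fold change -0.06), beside 18.1% risen and 17.8% fallen of all genes tested, and 5 of the falls were consistent. Ephb1, an ephrin receptor, had 4.64, 18.3 and 40.7 CPM in the broken libraries, against 31.7, 60.4 and 84.6 CPM in the intact ones, and fell by 1.71 ± 0.25. The ligand Efnb3 fell by 1.41 ± 0.20, the Slit receptor Robo1 by 1.07 ± 0.18 and the netrin receptor Unc5b by 1.83 ± 0.31. With the mature oligodendrocyte mean as covariate none of these 4 was called, and the log2 fold change was -0.70 for Ephb1, -0.40 for Efnb3, -0.80 for Robo1 and -0.15 for Unc5b.

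Cholesterol synthesis genes fell together by small amounts. Of 20 tested 12 fell, 3 of them consistently, with a median log2 fold change of -0.39. The shares of all genes tested were 17.8% fallen and 3.27% fallen consistently. Msmo1, a sterol demethylase, had 130, 179 and 283 CPM in the broken libraries, against 230, 335 and 423 CPM in the intact ones, and fell by 0.86 ± 0.13 (adjusted p = 3.61e-05). Sc5d, a sterol desaturase, fell by 0.59 ± 0.12, Hmgcs1, an early enzyme of the route, by 0.58 ± 0.12 and Sqle, the squalene oxidase, by 0.40 ± 0.08. With the mature oligodendrocyte mean as covariate the 12 lost their calls, with log2 fold changes of -0.43 for Msmo1, -0.28 for Sc5d, -0.34 for Hmgcs1 and -0.28 for Sqle. With the microglia mean these were -1.12, -0.94, -0.88 and -0.70, of which Sqle was called. The part of either marker level was not tested.

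A minority of mesenchymal and glycolytic genes rose, and those that did were not consistent in all 3 genotypes. Of 20 mesenchymal glioma genes 7 rose (median log2 fold change 0.47), and of 17 hypoxia and glycolysis genes 6 rose and 1 fell (median 0.36). Among all genes tested, 18.1% rose and 17.8% fell. Lgals1, a galectin, had 3.34, 54.8 and 453 CPM in the broken libraries, against 4.86, 10.4 and 29.0 CPM in the intact ones, and rose by 2.87 ± 0.59 (adjusted p = 0.000725), with 1.74 in Notch1-/-, which did not pass. The hyaluronan receptor Cd44 rose by 2.40 ± 0.60, hexokinase Hk2 by 1.44 ± 0.29 and lactate dehydrogenase Ldha by 0.90 ± 0.24. Ndrg1, induced by low oxygen and also abundant in oligodendrocytes, was the fall (-2.54 ± 0.35). Without the 3 mixed libraries 2 mesenchymal genes rose, and with the mature oligodendrocyte mean as covariate Cd44 and Ldha had -0.06 and -0.09.

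Genes of antigen presentation and interferon response gave few calls, beside 18.1% risen and 17.8% fallen of all genes tested. Of 15 MHC class I genes 0 passed in edgeR, in DESeq2 or in limma voom, and 1 had an unadjusted p under 0.05 in edgeR (median log2 fold change 0.53). Of 9 MHC class II genes 2 fell, Ctsh and H2-Oa (median 0.73), a share near that of all genes tested. Of 28 interferon response genes 1 fell, Ifit2 (median 0.46). The medians of these lists were above the 0.05 of all genes tested, so few calls do not show that levels were unchanged.

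**Figure D5:**
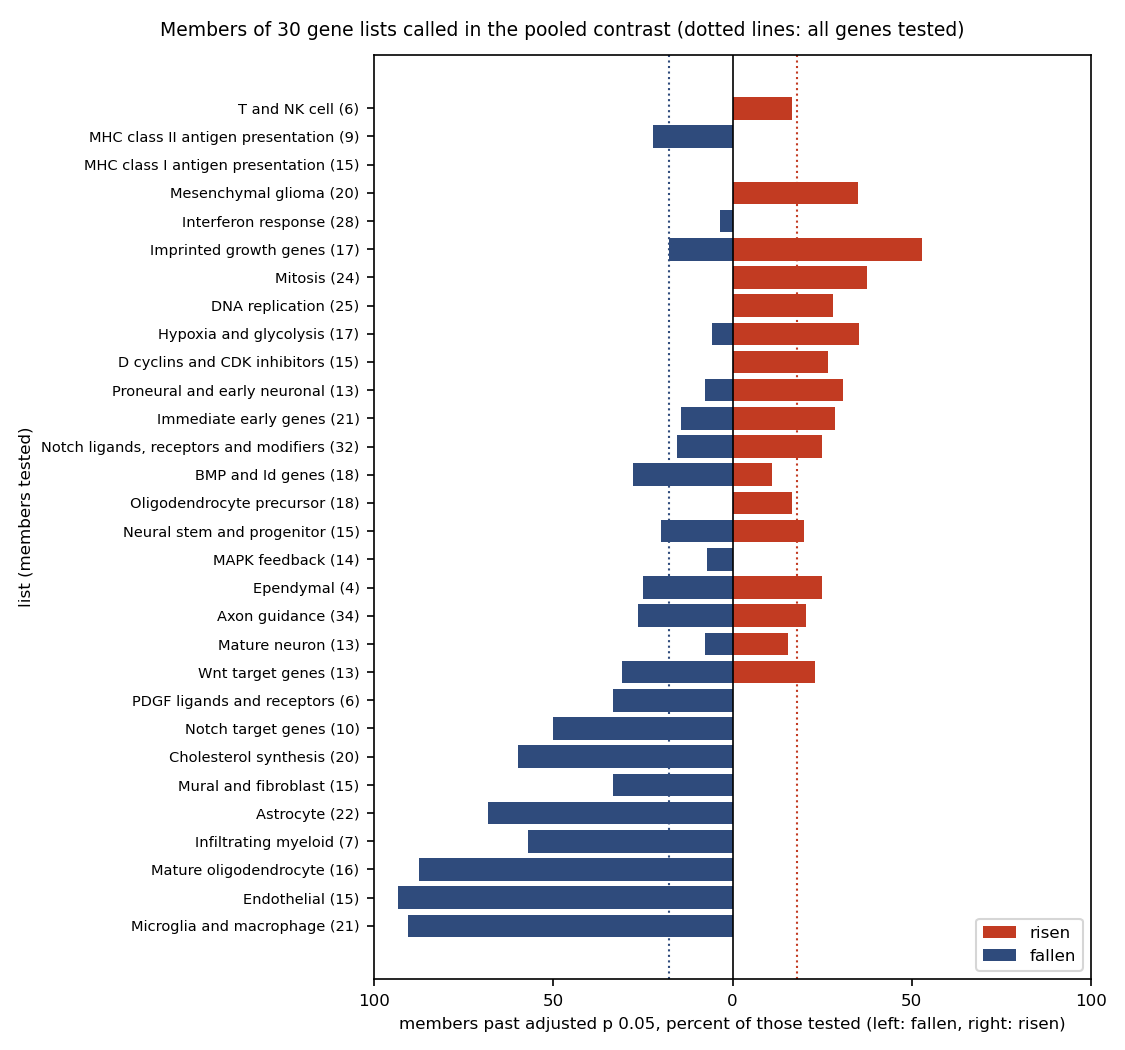
Share of the tested members of 30 gene lists that fell (bars to the left) or rose (bars to the right) in the pooled contrast, in percent, with the number tested beside each name; dotted lines are the shares of all genes tested. Lists run from the lowest median log2 fold change at the foot to the highest at the top, and the microglia and endothelial lists have the longest bars to the left.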

How the data were processed

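RNA of GFP-positive sorted cells was measured in 26 libraries, made with a stranded kit, per the labels. The authors deposited raw counts per gene, whole numbers without normalization, as 1 table with Entrez gene IDs. The submitters' processing notes name STAR and the mm10 build. Which program counted reads, on which annotation and with which strand option is not given in the sources used here; overlapping, antisense and near-identical genes therefore have uncertain counts. Symbols were matched by ID to RefSeq GRCm38.p6 for 24374 of 24454 genes, and the 80 unmatched held 0.348% of counts.

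In R 4.3.3, edgeR 4.0.16 filtered genes (filterByExpr), scaled totals (TMM) and fitted a quasi-likelihood model with 5 genotype means over all libraries (common biological coefficient of variation 0.368). Contrasts used Benjamini-Hochberg adjustment over all genes with a threshold of 0.05. Log2 CPM values used a prior count of 2. Fold changes came from the edgeR fit at its default prior count. Their standard error is the absolute log2 fold change over the square root of F. Equal levels in the 3 broken genotypes were tested jointly. Marker scores are means of log2 CPM over a list. Named genes were the allele genes, the 15 largest rises and 15 largest falls among consistent genes of mean log2 CPM of at least 1 without predicted genes and pseudogenes, up to 4 called genes of each of 30 lists, all Notch targets, and the 6 consistent genes with the smallest p among broken genotypes; others are marked in the text as seen first. The comparison, members and lists were chosen with earlier results of these data known.

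The 56 pairs of libraries within a genotype all differed by far more than sampling noise, with a chi-square per gene of at least 43.5. The scripts were tested on simulated data. Alternatives were other normalizations and filters, DESeq2 1.42.0, limma 3.58.1 (voom), replicate blocks, other comparison groups, marker covariates and leaving out libraries.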

Additional observations from a re-analysis of the deposited data

Results flagged for a closer look

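In 4 of 110 groups of 4 to 6 libraries examined, 1 library stood apart from the rest of its genotype by Dixon's test, and chance gives about 1 in 20. Hes1 was low in Notch1-/-Notch2-/- replicate 4, at 1.39 CPM. Hes5 was low in Notch2-/- replicate 5, at 2.38 CPM. Serpina3n was high in control replicate 4, at 89.0 CPM. Trp53 was high in control replicate 3, at 15.2 CPM.

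The effects of the 3 broken genotypes against the same intact average differed from each other for 11 of the genes described, in edgeR's quasi-likelihood test with adjustment over all genes. Among genes of the pathway these were Nrarp (adjusted p = 0.0181), Rbpj (0.0246), Hey1 (0.0347) and Dll3 (0.0447). Rbpj was lower in Rbpj-/- than in the other two, Nrarp and Hey1 were highest in Rbpj-/-, and Dll3 was highest in Notch1-/-Notch2-/-. Among the other genes these were Snhg16 (0.00719), Jun (0.0181), S1pr1 (0.0246), Siae (0.0250), St3gal6 (0.0252), Ermard (0.0270) and Angptl1 (0.0377), each furthest from the intact side in Notch1-/-Notch2-/-.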

How the results depend on the processing

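Of 110 called genes whose fold changes were followed under every alternative, 107 kept their call without any single library. The others were Notch3, Trp53 and Dusp6. Outside these 110, Klrb1c, Dlx1, Ak7 and Pdgfc also lost theirs. Without 1 library, pooled rises ranged from 2389 to 3284 and falls from 2433 to 3032, consistent rises from 104 to 538 and falls from 155 to 707, genes differing among broken genotypes from 49 to 250, genes differing between Notch2-/- and control from 21 to 170, and genes without overlap from 7 to 31 higher and from 96 to 121 lower. DESeq2 size factors left 4 genes higher without overlap. Keeping genes of 10 CPM in 4 libraries gave 1862 pooled rises, 181 consistent rises and 319 falls, 111 genes differing among broken genotypes and 16 for Notch2-/- against control. DESeq2's Wald test gave 844 consistent falls and 344 genes for Notch2-/- against control, and its likelihood ratio test 488 among broken genotypes. With limma voom there were 712 consistent rises, 1021 falls, 395 genes among broken genotypes and 1790 for Notch2-/- against control. Replicate numbers did not pair the libraries: over 47 same-number pairs the median correlation of deviations was -0.044, and 4 of 26 libraries correlated best with their own number. A fit with the replicate block gave 140 consistent rises, 305 falls, 56 genes among broken genotypes and 25 for Notch2-/- against control. An adjusted p threshold of 0.01 gave 1495 pooled rises, 1804 falls, and 41 and 104 consistent ones, and passing in all 6 contrasts of a broken with an intact genotype 14 rises and 89 falls.

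Against control alone there were 714 consistent rises and 881 falls, with 81 genes higher and 224 lower without overlap; against Notch2-/- alone 604 pooled rises, 1214 falls, 19 and 103 consistent, and 29 and 176 without overlap. Without the Notch1-/- libraries 579 genes rose consistently, with 46 and 202 without overlap. Without Notch1-/-Notch2-/- there were 1157 pooled rises, 1765 falls, 176 consistent rises and 4 higher without overlap. Without Rbpj-/- 1319 rose and 1345 fell consistently, with 80 and 172 without overlap. The microglia score gave 112 pooled rises, 134 falls, 7 and 9 consistent, and 20 for Notch2-/- against control. The endothelial score in edgeR gave 1 rise, 4 falls, 0 and 2 consistent (91 and 160 at an unadjusted p under 0.05), and 113 among broken genotypes. Both scores gave 0 rises, 4 falls, 0 and 2 consistent (120 and 222 at an unadjusted p under 0.05), 121 and 25. Xist as covariate gave 101 among broken genotypes. Chosen after seeing the data, the mature oligodendrocyte score gave 364 rises, 376 falls, 20 and 32 consistent, and 20 for Notch2-/- against control, and leaving out the 3 mixed libraries 1731 rises, 57 and 178 consistent, 107, 12, and 14 higher without overlap. Causes of these differences were not tested.

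Signs turned in 5 genes that were not called and in 8 that were. Of those not called, Trib2 had 0.0294 in voom, 0.00743 with the block, 0.0201 with libraries weighted equally, 0.28 against control and 0.11 without Notch1-/-Notch2-/-. Rbpj had 0.11 with libraries weighted equally, 0.0411 against Notch2-/-, 0.32 without Rbpj-/-, 0.30 with the microglia score and 0.20 with both. Hes6 had -0.0459 against control, -0.0685 with the endothelial score and -0.0389 with both. Heyl had 0.50 against Notch2-/-, 0.20 without Rbpj-/-, and 2.05, 1.56 and 0.96 with the microglia, both and oligodendrocyte scores. Dtx1 had -0.0487 without Rbpj-/-, and -0.0655, -0.12 and -0.19 with the microglia, endothelial and both scores. Of those called, Notch3 had 0.30 with the endothelial score and 0.0282 with both, Lef1 0.48 with the endothelial one and Ly6c2 1.18 with both. With the oligodendrocyte score Smad7 had 0.0495, Top2a -0.0132, Bub1b -0.0789, Cd44 -0.0564 and Ldha -0.0862. Without 1 library Hes6 ranged from -0.00349 to 0.12, Heyl from -0.54 to 0.0138, Rbpj from -0.0696 to 0.0635 and Trib2 from -0.0414 to 0.0805.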
